A study of Mus musculus with 20 samples.

Results

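The Runx family genes examined here are Runx1, Runx2 and Runx3, which encode DNA-binding transcription factors, and Cbfb, which encodes their shared partner. Their accessible elements were taken from 20 lists of ATAC-seq peaks of C2C12 cells. ATAC-seq uses a transposase that cuts open DNA, and a peak marks a stretch where its cuts pile up. All 787806 peaks of the 20 lists were merged wherever they overlapped by 1 bp or more, which gave 101352 regions. The members are the 116 regions within 30 kb of the annotated span of 1 of the 4 genes on GRCm38, called elements below. Runx1 had 48 of them, Runx2 39, Runx3 22 and Cbfb 7.

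Runx proteins bind the sequence TGTGGT or a close variant through a conserved domain, and CBFB binds that domain and strengthens its hold on DNA without touching the DNA itself. Runx1 is best known for blood stem cells, Runx2 for bone, and Runx3 for T cells and sensory neurons. Runx1 is also studied in injured muscle and in proliferating myoblasts. Each Runx gene has a distal and a proximal promoter that are used in different cells.

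C2C12 is a mouse myoblast line that can fuse into muscle fibres in culture. Libraries were made from wild-type cells (WT, replicates 1 and 2) and from 2 lines without Setd2 (KO, lines 1 and 2). Setd2 encodes the methyltransferase that writes H3K36me3 on transcribed genes. Cells were taken at the time points D0, D1 and D5, the last 2 in the control condition (CTL) or under methionine restriction (MR). Each genotype therefore had 5 groups, named D0, D1 CTL, D1 MR, D5 CTL and D5 MR, and each of the 10 groups had 2 libraries. The series addresses how methionine supply bears on H3K36me3 during differentiation. The KO libraries of a group came from different lines, so their spread includes the difference between lines. The labels do not say whether WT replicates were separate cultures, so p-values measure only the spread between these libraries, which may be technical.

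The lists held 644 to 69881 peaks. The D5 lists of KO line 1 (644 peaks under CTL, 1881 under MR) stood apart from the other 18, which held at least 20847, and tests used those 18 (10 WT and 8 KO libraries). KO at D5 was then line 2 alone. The start of Setd2 had a peak in 10 of 10 WT and 8 of 8 KO libraries, and a peak at a start does not check a deletion. Of 8 myoblast genes, Des (an intermediate filament of muscle), Cdh15 (M-cadherin) and Chrna1 (an acetylcholine receptor subunit) had a peak at their start in all 18. Myod1 and Ncam1 had one at a gene end in 17, Myf6 in 10, Myf5 at its start in 9, and the satellite cell gene Pax7 in 0. Over all 31151 genes, 51.3% had no peak at a start in any of the 18 and 20.7% had one in all 18, so a missing peak at a few marker genes sets them little apart from other genes. The fat genes Adipoq, Fabp4, Cidec and Lep had none. Of 5 bone genes, Bglap and Dmp1 had a peak in 1 library each and Sp7, Ibsp and Phex in 0. Of the blood genes, Ptprc, Csf1r and Cd3e had none, and Spi1 had a peak near 1 end of the gene in all 18.

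The promoter sequences are shown first, because the distal starts share a short run that carries the motif of the family itself. The following are the 250 bases before each distal start, and before the start of Cbfb, from RefSeq on GRCm38.p6. They read 5′ to 3′ on the strand of the gene, with matches to TGTGGT on either strand in capitals.
Runx1 distal, chr16:92826075-92826324, minus strand: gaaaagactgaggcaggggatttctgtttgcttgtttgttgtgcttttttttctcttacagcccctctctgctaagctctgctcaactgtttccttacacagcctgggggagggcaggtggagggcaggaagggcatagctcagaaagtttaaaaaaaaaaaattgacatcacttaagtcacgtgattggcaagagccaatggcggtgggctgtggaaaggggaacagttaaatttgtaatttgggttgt
Runx2, chr17:44814628-44814877, minus strand: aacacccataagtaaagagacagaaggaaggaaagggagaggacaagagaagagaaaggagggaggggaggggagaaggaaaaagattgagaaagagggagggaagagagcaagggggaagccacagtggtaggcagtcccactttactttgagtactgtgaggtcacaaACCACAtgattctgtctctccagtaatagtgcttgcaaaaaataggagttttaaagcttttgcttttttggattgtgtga
Runx3 distal, chr4:135120395-135120644, plus strand: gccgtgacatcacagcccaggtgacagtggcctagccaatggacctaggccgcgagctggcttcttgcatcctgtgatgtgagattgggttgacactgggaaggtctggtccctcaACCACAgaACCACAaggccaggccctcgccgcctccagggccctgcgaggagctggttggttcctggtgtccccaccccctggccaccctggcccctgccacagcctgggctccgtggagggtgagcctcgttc
Cbfb, chr8:105170424-105170673, plus strand: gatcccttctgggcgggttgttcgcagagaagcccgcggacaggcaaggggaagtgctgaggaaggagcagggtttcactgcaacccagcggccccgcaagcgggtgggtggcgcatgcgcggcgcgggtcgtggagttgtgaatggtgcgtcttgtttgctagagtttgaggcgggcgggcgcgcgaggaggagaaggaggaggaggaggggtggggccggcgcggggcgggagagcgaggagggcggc

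The 3 distal windows, of 250 bases before and 50 from the start, held the same run of 18 bases with 2 matches in it. The run stood in 4 of 32851 such windows in the table, those of Runx1, Runx2, Runx3 and Gm16225. It is printed within a stretch of 28 bases, in capitals where the motif matches. The stretch began at base 23 from the start in Runx1, 18 in Runx2 and -140 in Runx3.
Runx1 distal, chr16:92826025-92826052: taaacaACCACAgaACCACAagttgggt
Runx2, chr17:44814583-44814610: caaacaACCACAgaACCACAagtgcggt
Runx3 distal, chr4:135120505-135120532: ccctcaACCACAgaACCACAaggccagg
The run lay at bases 27 to 44 from the start in Runx1 and 22 to 39 in Runx2. In Runx3 it began at base -136. At least 2 matches to TGTGGT on either strand, overlaps allowed, were found in 1.81% of all windows, and at least 1 in 16.8%. The proximal windows of Runx1 and Runx3 and the Cbfb window had 0 matches to it. Base composition followed the same division only in part. G and C made up 45.0% of the Runx1 distal window and 45.3% of the Runx2 window, with 2 CpG in each, against a median over all windows of 52.7% and 7 CpG. The Runx3 distal window lay between, with 63.7% and 8 CpG. The proximal windows held 69.0% and 35 CpG in Runx1, and 77.3% and 45 CpG in Runx3, and the Cbfb window 69.7% and 30 CpG. These are matches of letters and not measured binding.

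Peaks at the starts are described first (plot of the peaks at the own starts). The rank of a peak is given as its percentile within its own list by −log10 q, where 100 is the strongest. Lists of different length make these percentiles descriptions and not changes. The distal start of Runx1 (chr16:92825906-92826259) had a peak in all 18 libraries, with percentiles from 56.2 to 96.7 and a median of 87.6. The proximal start of Runx1 (chr16:92696620-92698178) also had one in all 18, from 64.7 to 92.5 with a median of 86.1. Both Runx1 promoters were thus called in every library, and neither in the 2 short lists. The distal start of Runx3 (chr4:135120352-135120679) ranked higher still, from 80.9 to 98.7 with a median of 92.8 over 18 of 18. The proximal start of Runx3 differed from it. There a peak at chr4:135152199-135152556 was called in 10 of 18 libraries at a median percentile of 23.0, and a second at chr4:135152901-135153057 in 11 of 18 at 35.9. The start of Cbfb (chr8:105170399-105171002) had a peak in 18 of 18 at a median of 71.1, and a smaller one (chr8:105171448-105171606) in 3.

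The start of Runx2 (chr17:44814482-44815095) was likewise not called in all 18. The source used here gives this gene 1 start, the distal one, and a proximal Runx2 start was not mapped. Its percentiles at D0 were 40.3 and 44.3 in WT and 48.8 in KO line 1, with no peak in KO line 2. At D1 they were 62.8 and 63.1 in WT CTL, 64.2 and 58.8 in WT MR, 49.8 and 43.4 in KO CTL, and 30.4 and 33.0 in KO MR. At D5 none of the 4 WT libraries had the peak, and of the KO libraries only line 2 in MR had it, at 32.2. All 8 libraries of D1 were therefore called and 1 of the 6 tested libraries of D5. The difference in calls, D5 minus D1, was -0.75, with an exact two-sided stratified permutation p of 0.00926 and an adjusted p of 0.0724, which misses 0.05.

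**Figure D1:**
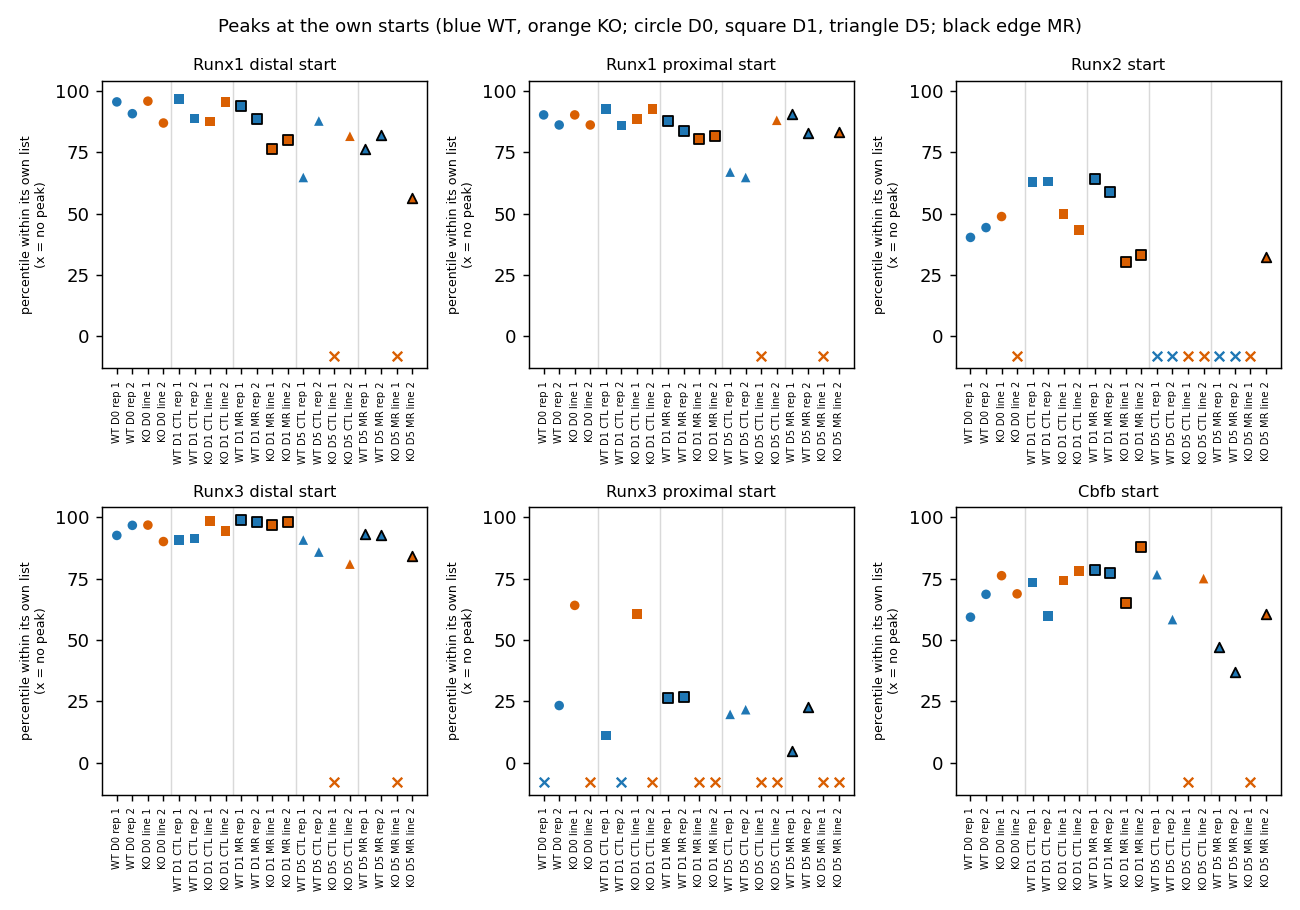
Peaks at the annotated starts in each of the 20 libraries. The vertical axis is the percentile of the peak within its own list (no unit, 100 is the strongest), the horizontal axis the library, and a cross marks no peak. Runx1, Runx3 distal and Cbfb starts have a peak in 18 libraries, and the Runx2 start has none in the 4 WT libraries of D5.

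Of the 116, 20 (17.2%) were called in all 18 libraries, against 11% of all 101352 regions, and 25 were called in 1 library of 20. Their lengths ran from 50 to 1559 bp with a median of 249.5. The Runx1 proximal start was the longest. The 20 shared elements were 11 of 48 in Runx1, 3 of 39 in Runx2, 4 of 22 in Runx3 and 2 of 7 in Cbfb. The count of elements with a peak ran from 27 to 88 over the 18 libraries, and was 2 and 5 in the short lists. Longer lists mostly held more of them (plot of elements against list length), but the longest, WT D1 MR replicate 1 with 69881 peaks, held 78. The 2 WT D5 CTL lists, of 22465 and 20847 peaks, had 36 and 31, while KO line 1 at D0, with 63530 peaks, had 88.

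**Figure D2:**
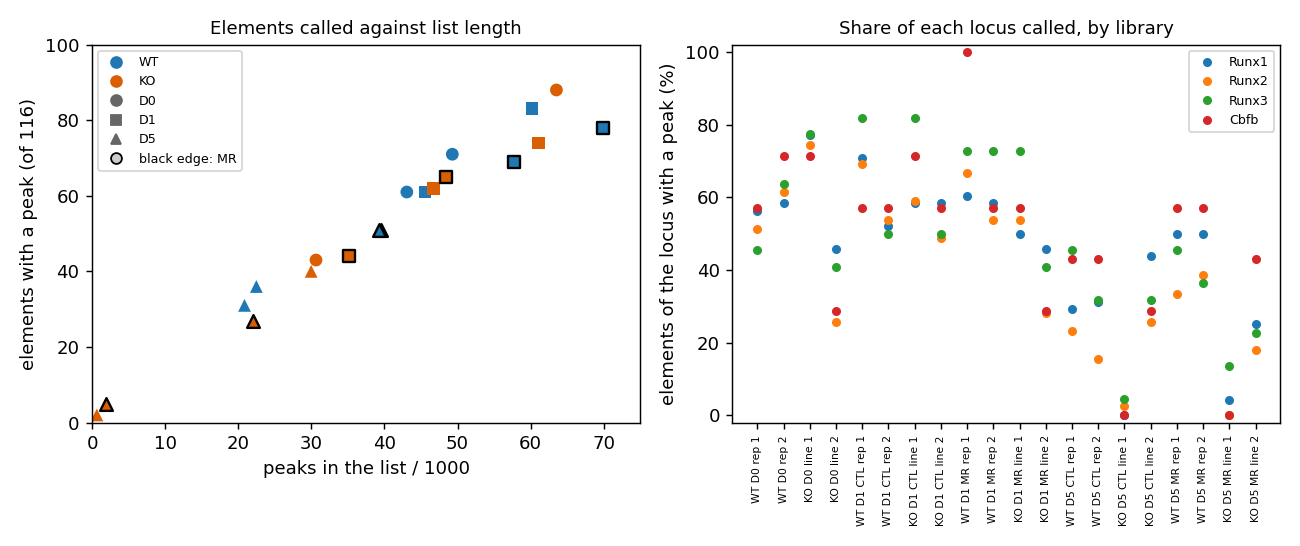
Left, elements with a peak (count, of 116) against the length of the list (peaks / 1000), 1 point per library. Right, the share of each locus's elements with a peak (%) in each library; the shares are lowest in the 2 short lists of KO line 1 at D5.

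Runx1, 224.6 kb long on the minus strand of chromosome 16, had 1 element at each start, 12 between the starts, 25 past the proximal start, 4 upstream and 5 downstream. Exons were not mapped here, so elements inside a gene are given by position only. Distances count from the distal start, in the direction of transcription. Between the starts, 4 of 12 were called in all 18, at +2.4, +47.8, +115.7 and +127.3 kb. No element lay between +2.4 and +37.4 kb, a gap of 35.0 kb, and the 38.1 kb between +47.8 and +85.9 kb had none either. Past the proximal start 4 of 25 were in all 18, at +171.4, +202.0, +204.9 and +216.4 kb. The element at +204.9 kb (chr16:92620785-92621549) was the strongest of the locus, with percentiles from 85.6 to 100 and a median of 97.8. The element at +216.4 kb had a median of 91.5 and its neighbour at +217.6 kb, called in 16 of 18, a median of 88.1. Of the flanks, the element 2.1 kb upstream (chr16:92827809-92828555) was called in 18 and 1 at +252.5 kb in 14. Of the 12 Runx1 elements called in only 1 library, 7 came from the D0 list of KO line 1.

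Runx2, 318.8 kb long on the minus strand of chromosome 17, had 36 elements inside the gene, of which 2 were called in all 18. The first, at +314.1 kb near the 3′ end (chr17:44500277-44500849), had a median percentile of 85.6, from 73.7 to 96.7. The other, at +79.9 kb (chr17:44734552-44734856), was weaker, with a median of 37.2 and a range of 6.9 to 67.4. Another shared element, at +37.3 kb, is the start of Supt3, a gene of a transcription co-activator complex that overlaps Runx2, and is counted apart. Next to the element at +314.1 kb, the one at +309.6 kb was called in 17 of 18. The element at +306.2 kb (chr17:44508164-44508700), called in 16 of 18, spanned the whole range of ranks. Its percentiles were 98.7 and 98.8 in WT at D0 and 99.5, 99.6, 97.6 and 95.4 in WT at D1. They were 61.2, 95.9 and 90.2 in KO line 1, and 35.6, 20.4 and 4.8 in the 3 of 5 libraries of KO line 2 that had the peak. The WT values at D5 were 64.4, 86.9, 88.9 and 93.1. The 6 WT libraries of D0 and D1 lay above all 3 calls of KO line 2 and, but for 1 library, above KO line 1.

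Runx3, 57.3 kb long on the plus strand of chromosome 4, had its strongest element outside the gene. The element 24.7 kb upstream of the distal start (chr4:135095751-135096074) was called in all 18 libraries and in 1 of the short lists. In the 16 libraries other than KO line 2 at D5 its percentiles were 97.7 or higher, up to 100, and in KO line 2 at D5 they were 77.2 in CTL and 66.7 in MR. Downstream, at +71.0 kb (chr4:135191289-135192039), 1 element was called in all 20 libraries, and its median over the 18 was 94.8. The elements at +69.2 kb and +82.8 kb were called in 17 and 10. Inside the gene, +48.8 kb (chr4:135169159-135169823) was called in all 18, +26.2 kb in 15 and +50.9 kb in 14. The element at +50.9 kb (chr4:135171367-135171771) had percentiles of 98.7 and 98.9 in WT D0, 95.7 and 94.1 in WT D1 CTL, and 62.5 and 48.7 in WT D1 MR. In KO they were 61.4 and 65.6 at D0, and 37.6, 53.0 and 31.7 in the 3 calls at D1. At D5 the 3 calls, all WT, were at 31.8, 12.3 and 16. The WT libraries of D0 and of D1 CTL thus lay above every other library. This element and that of Runx2 at +306.2 kb were singled out after their values were seen.

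Cbfb, 47.3 kb long on the plus strand of chromosome 8, had few elements. Beside the start, 1 element inside the gene at +16 kb (chr8:105186570-105186878) was called in all 18, at percentiles from 3.6 to 92.1. Upstream, the element at -9.1 kb (chr8:105161323-105161877) was called in 13 of 18 and 2 others in 2 each. The start of D230025D16Rik, at +54.4 kb, is counted apart.

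**Figure D3:**
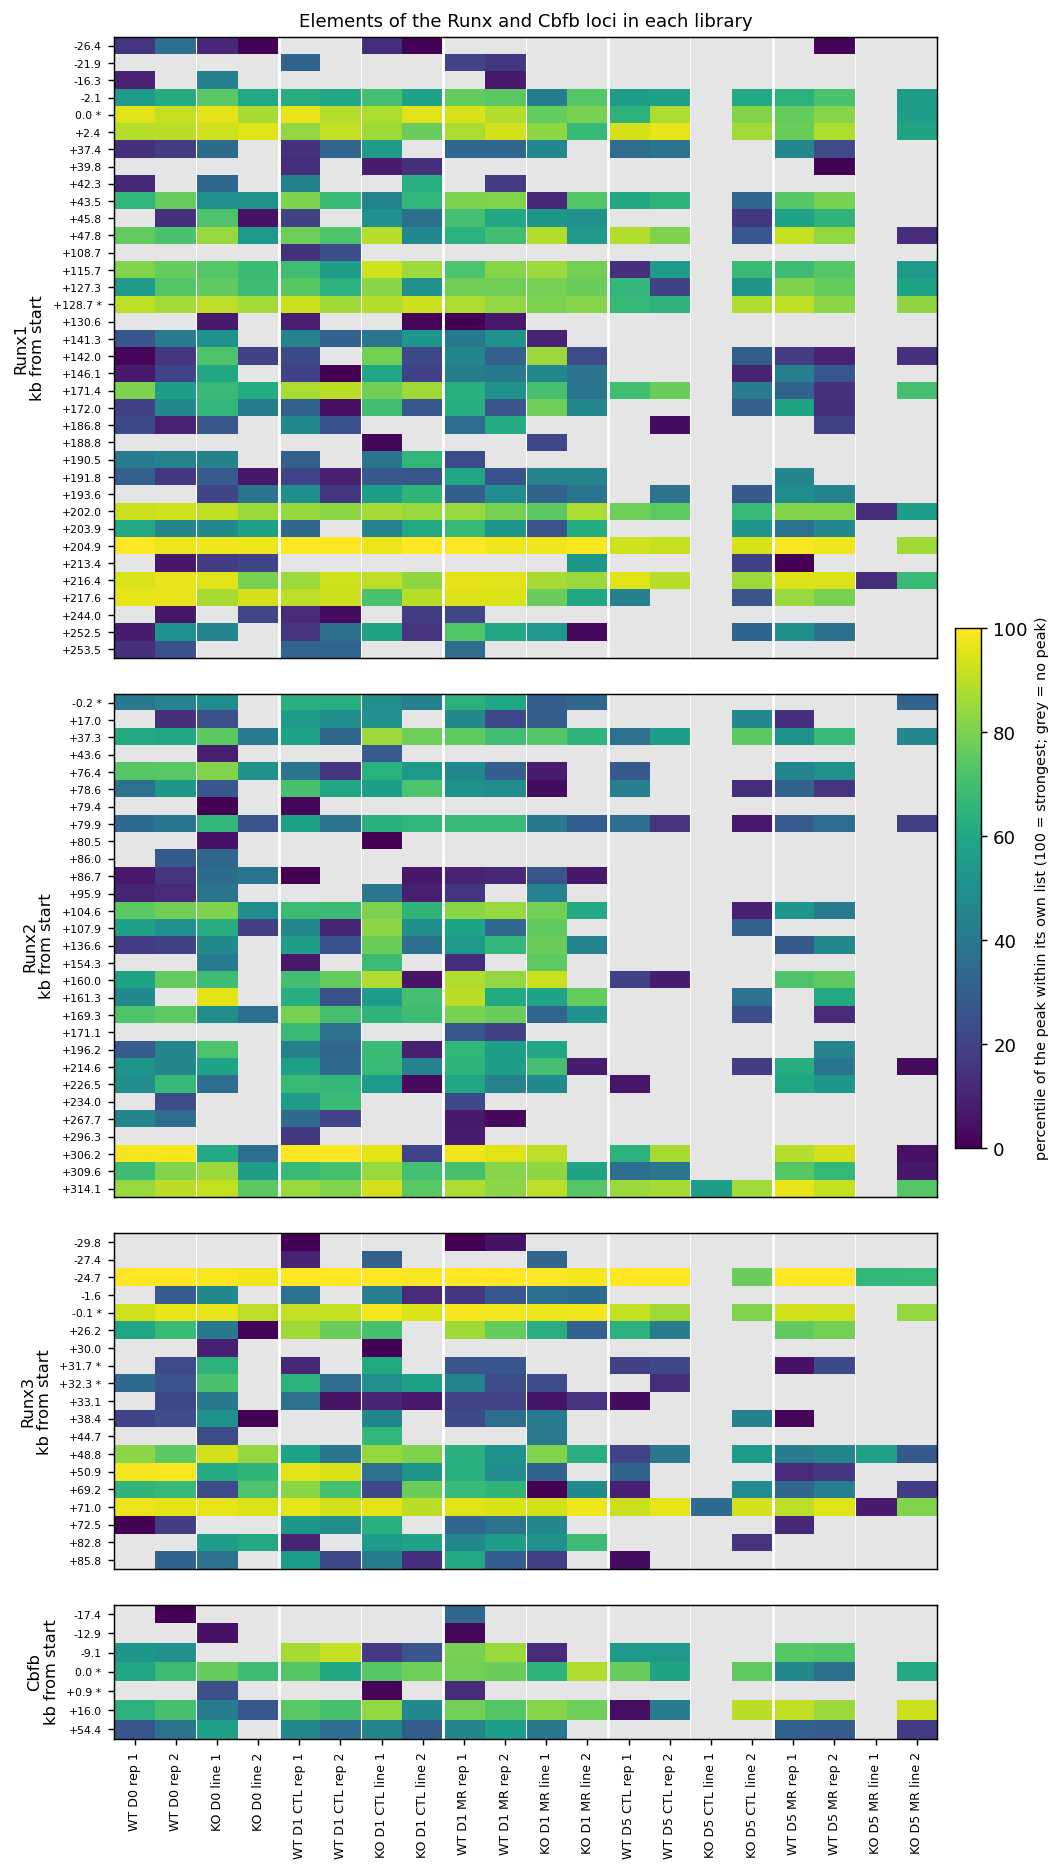
Elements called in at least 2 of the 20 libraries (rows, by kb from the distal start in the direction of transcription, own starts starred) in each library (columns). Colour gives the percentile of the peak within its own list, and grey no peak. The Runx3 row at -24.7 kb and the Runx1 row at +204.9 kb are near 100 in most libraries.

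Genotype was compared first on calls, within each day and medium. In this test, 0 of 20 elements whose calls could reach an exact p of 0.05 passed an adjusted p of 0.05. Among all 19646 such regions, 4.63% passed as higher in KO and 6.86% as lower. Before adjustment, 1 of the 20 elements was higher and 7 were lower in KO at p under 0.05, against 14.1% and 33.2% of the 19646 regions. The smallest p the 1944 arrangements allow is 0.000514. All genotype tests here, on calls or ranks, treat each KO library as separate. The same KO lines recur across conditions, so the p-values by genotype may be too small.

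The lowest adjusted p, 0.0504, was shared by 2 elements (plot of the elements with the lowest p by genotype). The first was Runx2 +267.7 kb (chr17:44546815-44547106). It was called in all 6 WT libraries of D0 and D1, at percentiles of 45.4, 35.7, 34.8, 20.2, 6.9 and 2.6, and in no KO library, nor in any WT library of D5. The second was Cbfb -9.1 kb. In WT it was called in 10 of 10, at 52.9 and 50.6 in D0, 86.5 and 91.2 in D1 CTL, 79.4 and 85.0 in D1 MR, 54.0 and 53.5 in D5 CTL, and 74.1 and 72.3 in D5 MR. In KO it was called in 3 of 8, all at D1, at 16.7 and 26.4 in CTL and 12.1 in MR. Each of the 3 KO percentiles lay below all 10 of WT. For both the exact two-sided permutation p was 0.00926, and the differences in calls, KO minus WT, were -0.60 and -0.70.

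In several of the others the KO lines differed. Runx1 +37.4 kb (chr16:92788503-92788751), between the starts, was called in 10 of 10 WT libraries, in all 3 tested libraries of KO line 1 and in 0 of 5 of line 2 (exact permutation p = 0.0139, adjusted p = 0.0540). The difference there was that of line 2. Runx2 +160.0 kb (chr17:44654480-44654867) had the same pattern but for 1 library of line 2, with an adjusted p of 0.0681 in that exact test. The other 3 lower ones were Runx1 +253.5 kb, Runx1 +186.8 kb and Runx3 +72.5 kb, at adjusted p of 0.0681, 0.0681 and 0.0881. The 1 higher in KO was Runx3 +82.8 kb (chr4:135203333-135203604), called in all 6 KO libraries of D0 and D1 and in 3 of the 6 of WT, with an adjusted p of 0.0681. List length, which differs between libraries, bears on calls: KO line 2 had 30629 peaks at D0 and KO line 1 63530, and its part in these calls was not tested.

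The call by genotype depended on the peaks used. With the 20000 strongest peaks of each list, which makes the lists equally long, 6 of 15 elements passed, as did 2893 of 10319 regions. Cbfb -9.1 kb, Runx3 +26.2 kb, Runx1 +43.5 kb, Runx2 +306.2 kb and Runx2 +160.0 kb were lower in KO, and Runx3 +48.8 kb higher. Adjusted p lay between 0.0320 and 0.0495. With all 20 libraries 4 passed, each lower in KO: Runx1 +186.8 kb, Runx1 +37.4 kb, Runx2 +267.7 kb and Cbfb -9.1 kb. Cbfb -9.1 kb was the one element to pass in both. The 2 lists added in the second setting are the short ones of KO, with 644 and 1881 peaks. A missing call in them counts as lower in KO, so that setting adds little. Where at least 50% of a region had to be covered, 0 elements and 0 of 21327 regions passed. The difference for Cbfb -9.1 kb was -0.3 there, and its calls could not reach p of 0.05.

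**Figure D4:**
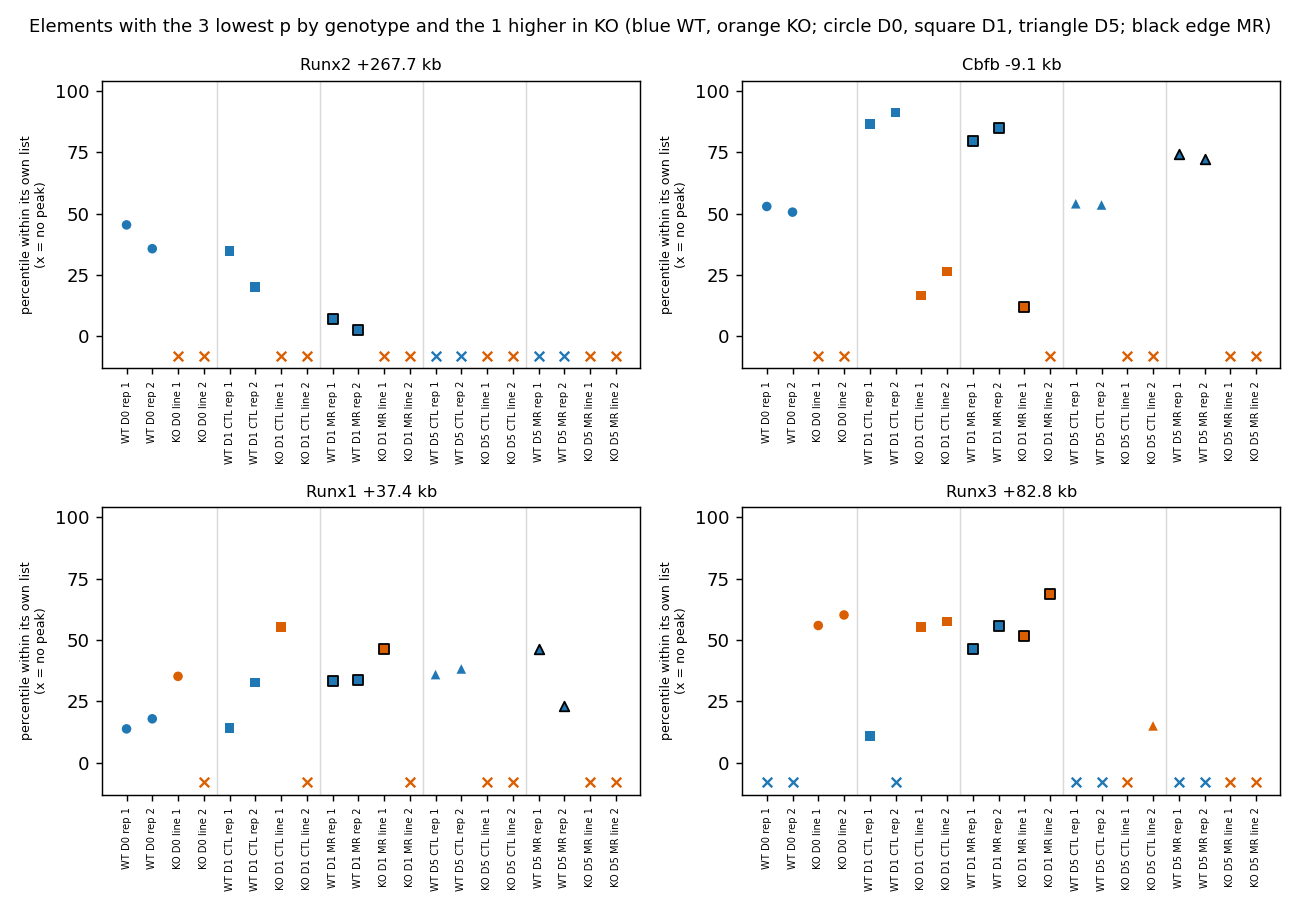
Percentile within the own list (no unit, 100 is the strongest, a cross marks no peak) in each library for 4 elements. Cbfb -9.1 kb is called in 10 of 10 WT libraries and 3 of the KO libraries, Runx2 +267.7 kb in no KO library, and Runx3 +82.8 kb in all 6 KO libraries of D0 and D1.

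Where both libraries of 1 group were called and neither of the other, KO and WT could be set side by side without a test. At D0, 2 of 97 elements (2.06%) were called only in KO and 4 (4.12%) only in WT, against 2.51% and 5.36% of all regions. At D1 in CTL they were 2 (2.11%) and 6 (6.32%) of 95, against 5.41% and 6.45%. At D1 in MR they were 0 and 7 (8.33%) of 84, against 1.61% and 17.7%. The elements' shares thus lay below those of all regions in each of these comparisons.

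Among the 20 elements called in all 18 libraries, strength could be compared with ranks set against the same regions each time. The shared-region percentile ranks an element among the 11144 regions called in all 18 (100 is the strongest). By genotype, 2 of the 20 elements were higher in KO and 2 lower at an adjusted p under 0.05. The background over the 11144 regions was 11.2% higher and 11% lower, so the share of elements was near it.

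Runx1 +216.4 kb (chr16:92609358-92610061), in the 3′ part of the gene, fell in KO. Its shared-region percentiles in WT were 80.2 and 85.4 at D0, 48.6, 76.0, 76.6 and 78.5 at D1, and 91.0, 81.3, 80.7 and 80.9 at D5. In KO they were 75.4 and 56.0 at D0, 54.9, 48.6, 54.0 and 59.4 at D1, and 65.0 and 46.9 at D5. The KO values lay below WT except that 1 WT library of D1 CTL overlapped them. The difference was -20.68 percentile points (exact two-sided permutation p = 0.00154, adjusted p = 0.0145), and the median width of its peak was 676 bp in WT and 668.5 bp in KO.

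Runx3 +48.8 kb rose in KO. In WT it stood at 49.9 and 26.1 at D0, at 9.2, 4.3, 5.5 and 3.1 at D1, and at 8.2, 22.5, 5.0 and 6.0 at D5. In KO it stood at 68.9 and 64.2 at D0, 36.6, 43.1, 39.9 and 24.0 at D1, and 21.5 and 12.2 at D5. At D0 and D1 the KO values lay above WT in each group. The difference was 20.42 points (exact permutation p = 0.00206, adjusted p = 0.0171). The median width of its peak was 569 bp in WT and 270.5 bp in KO. A q-value can depend on how wide a peak was called, and the part of width was not tested.

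Runx3 -24.7 kb passed as lower in KO, with a difference of -22.24 points (exact permutation test, adjusted p = 0.0219), and its 2 lowest libraries stood far from the rest. WT lay between 99.2 and 99.9 throughout and KO at D0 and D1 between 93.9 and 99.8. KO line 2 at D5 stood at 49.3 in CTL and 46.3 in MR. Without the D5 libraries, a setting added after seeing the data, the difference was -2.43, and without KO line 2 it was -1.37.

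The Supt3 start at Runx2 +37.3 kb rose in KO by 14.53 points (exact permutation, adjusted p = 0.0453). WT lay between 3.1 and 37.9 with a median of 15.4, and KO between 16 and 45.0 with a median of 26.0, so the ranges overlapped. Each of these 4 calls was lost without WT replicate 1, without WT replicate 2, without KO line 2 and without the D5 libraries, settings in which 0 of the 11144 regions passed. The call of the Supt3 start was also lost with peaks of −log10 q of at least 2, where the difference was 12.85 (exact permutation, adjusted p = 0.0502) and 2113 of 9920 regions passed. Without KO line 2 the differences were -12.79 for Runx1 +216.4 kb and 32.12 for Runx3 +48.8 kb.

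**Figure D5:**
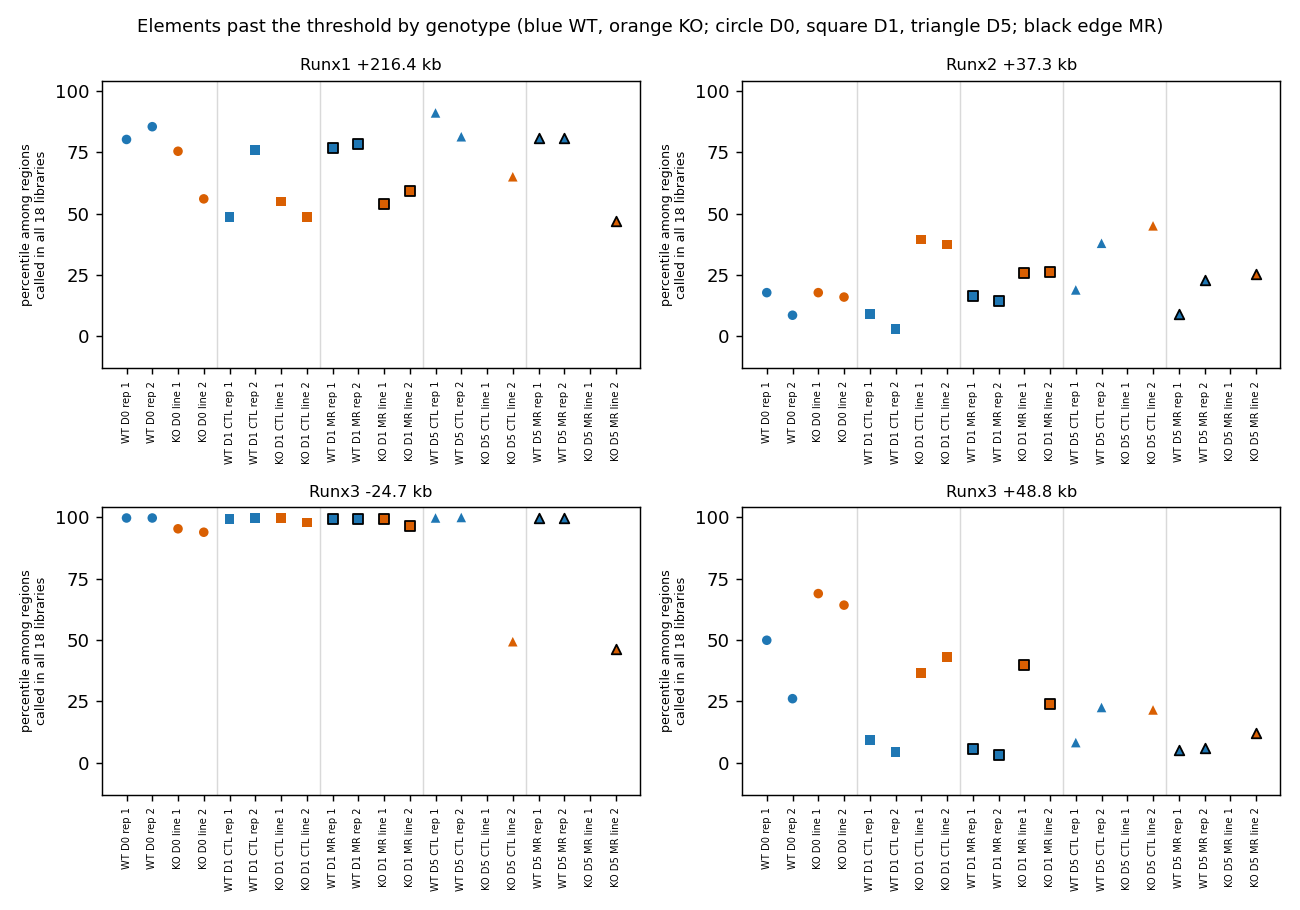
Shared-region percentile (no unit, among the 11144 regions called in all 18 libraries) of the 4 elements past the threshold by genotype, 1 point per library, without the 2 short lists. Runx3 -24.7 kb is at 93.9 or higher in each library but the 2 of KO line 2 at D5, at 49.3 and 46.3.

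Medium was compared within genotype and day. Of the 116 elements, 1 could reach an exact p of 0.05 by calls and 0 passed, against 0% of 2611 regions in either direction. By shared-region rank 0 of 20 passed, against 0% of 11144 in either direction, with 2 elements at an unadjusted exact p under 0.05. These were the Runx1 distal start, with a difference, MR minus CTL, of -20.35 points (exact permutation p = 0.0370, adjusted p = 0.214), and Runx3 +48.8 kb, with -7.34 points (exact p = 0.0463, adjusted p = 0.236). At the Runx1 distal start the shared-region percentiles of WT at D1 were 85.3 and 64.0 in CTL and 68.2 and 53.5 in MR. In KO at D1 they were 46.6 and 83.0 in CTL and 30.5 and 48.2 in MR, and in WT at D5 they were 45.3 and 79.1 against 37.2 and 48.4. As groups, libraries of CTL and MR overlapped in both genotypes at D1 and in WT at D5. Within each KO line MR was the lower, from 46.6 to 30.5 in line 1 at D1, from 83.0 to 48.2 in line 2 at D1 and from 57.2 to 34.5 in line 2 at D5. With libraries paired by number, 0 of the 20 elements passed by rank.

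In WT at D5, where the MR lists were longer (39538 and 39263 peaks against 22465 and 20847), 10 of 60 elements (16.7%) were called in both MR libraries and neither CTL library, and 0 the other way. The shares over all regions were 27.9% and 0.494%. The 10 were Runx1 +252.5, +203.9, +172.0, +146.1, +142.0 and +45.8 kb, Runx2 +214.6, +136.6 and +104.6 kb, and Cbfb +54.4 kb. Each of the 10 had also been called in at least 3 of the 4 WT libraries of D1. The part of list length was not tested. In WT at D1, 1 of 91 elements (1.10%) was called only in MR (Runx3 +38.4 kb) and 1 (1.10%) only in CTL (Runx1 +108.7 kb), against 10.2% and 1.75%. In KO at D1, 3 of 79 (3.80%) differed in this way, all 3 in Runx1 and called in CTL, against 4.37% of regions in both directions together.

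D5 was compared with D1 within genotype and medium. Of the 20 elements whose calls could reach an exact p of 0.05, 0 passed, against 0% of 14311 such regions in either direction. The smallest p that the 324 arrangements allow is 0.00309. At an unadjusted exact p under 0.05, 14 of these 20 elements were less often called at D5, against 50.1% of the 14311 regions. They were 2 in Runx1 (+191.8 and +141.3 kb), 7 in Runx2 (+196.2, +169.3, +161.3, +136.6, +107.9 and +86.7 kb and the start) and 5 in Runx3 (-1.6, +32.3, +33.1, +82.8 and +85.8 kb). Their adjusted p were 0.0724 or 0.0801. Among them, Runx1 +191.8 kb was called in 8 of 8 libraries of D1 and 1 of 6 of D5. Runx3 -1.6 kb, just upstream of the distal start, was called in 7 of 8 and 0 of 6, while the distal start itself was called in all 14. With all 20 libraries, 18 elements passed, each lower at D5, as did 10687 of 16153 regions. The 2 lists added there are the short ones, both of D5, and a missing call in them counts as lower at D5. With the 20000 strongest peaks of each list 0 passed and 2 had an unadjusted p under 0.05. At that setting the difference for the Runx2 start was 0.125, the other way.

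In WT in CTL, 22 of 84 elements (26.2%) were called in both D1 libraries and neither of D5, against 32.9% of regions, and 12 of the 22 were in Runx2. In MR they were 14 of 84 (16.7%), against 21.9%, of which 5 were in Runx2 and 6 in Runx3. The other way there were 0 elements in either medium, against 0.409% and 1.69% of regions. By shared-region rank 0 of 20 elements passed, against 3.06% higher and 3.31% lower at D5 over all regions. The largest differences at an unadjusted exact permutation p under 0.05 were those of Cbfb +16 kb, 30.62 points higher at D5 (p = 0.0309), and Runx2 +314.1 kb, 22.63 points higher (p = 0.0370). Cbfb +16 kb went the other way in WT in CTL, at 26.2 and 28.8 at D1 and 0.9 and 24.3 at D5. In WT in MR it stood at 22.6 and 19.4 at D1 and 70.1 and 55.4 at D5, and in KO line 2 at 6.0 and 74.3 in CTL and 44.6 and 84.9 in MR. Runx2 +314.1 kb stood at 73.5, 77.5, 88.9 and 70.6 in WT at D5, above all 6 WT libraries of D0 and D1, which lay between 36.9 and 60.9. KO libraries of D1 and D5 overlapped. KO line 2 stood at 31.1 at D1 and 66.2 at D5 in CTL, and at 38.0 and 55.5 in MR. KO line 1 at D1 stood at 68.0 in CTL and 62.4 in MR.

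D1 in CTL and D0 are given without a test. In WT, 3 of 93 elements (3.23%) were called in both D1 libraries and neither of D0, and 3 (3.23%) the other way, against 7.44% and 2.63% of regions. In KO they were 2 of 96 (2.08%) and 1 (1.04%), against 1.91% and 0.353%. In WT, Runx1 +193.6 kb was among those called at D1 and not at D0, and Runx1 -26.4 kb among those called at D0 and not at D1. Runx1 +193.6 kb was also called in both KO libraries of D0, and Runx1 -26.4 kb in both of KO D1 CTL. Runx2 +171.1 kb was called in all 4 WT libraries of D1 and in no other library of the 20. These 3 were named after their values were seen.

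Genes that work with the Runx proteins were read at their starts, within 1 kb. Of 18 co-regulators, 8 had a peak in all 18 libraries, among them the Groucho-type co-repressor genes Tle1, Tle3 and Tle4, Ep300 (an acetyltransferase) and Wwtr1 (the co-activator TAZ). Over all genes 20.7% had one. By genotype the calls of 3 of the 18 allowed a test, and of these 1 passed, lower in KO, and 0 were higher, against 2.06% lower and 1.23% higher of the 2034 genes that could be tested. It was Cbfa2t3, the gene of the co-repressor ETO2, which had its peak in 10 of 10 libraries of WT and 0 of 8 of KO (exact two-sided stratified permutation p = 0.000514, the smallest possible, adjusted p = 0.0361). The peak lay between 890 and 1409 bp inside the gene, counted from the nearer of its 2 starts, on chromosome 8. In WT its percentiles were 29.9 and 43.2 in D0, 73.1, 71.1, 68.9 and 66.1 in D1, 55.9 and 34.6 in D5 CTL, and 91.3 and 91.2 in D5 MR. No KO list had it, the short ones included. Those lists came from only 2 KO lines, while the test counts each library as separate. Among the 20000 strongest peaks of each list it was found in 7 of 10 WT libraries.

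Target genes known from other tissues were read in the same way. Of 11 Runx2 targets of bone, 6 (54.5%) had no peak in any of the 18 libraries, near the 51.3% of all genes. They were Sp7, Ibsp, Mmp13, Col10a1, Ihh and Dlx5. Vegfa, the angiogenic growth factor, had one in all 18 and Spp1, the matrix protein osteopontin, in 16. Among the targets of Runx1 and Runx3 in blood cells, Spi1 (near 1 end of the gene), Cebpa and Zbtb7b had one in all 18, and Csf1r, Itga2b and Cd8a in none. Of the bone and blood targets named here, only Cd4 had calls that allowed a test by genotype. Cd4 did not pass (adjusted p = 0.459 by the exact permutation test). By medium and by day the calls of none of these targets allowed a test, so no conclusion is drawn for them there.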

How the data were processed

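ATAC-seq peaks of 20 C2C12 libraries were used as deposited, 1 list per library. Per the labels' protocols, DNA tagmented with a commercial kit was amplified with 10 PCR cycles and sequenced in pairs. Per the submitters' processing notes the build is GRCm38, and aligner, filters, duplicate handling, read shift and peak caller are not given in the sources used here. Each peak carries, as the authors' values, a score (10 times the −log10 q without decimals), a ratio (fold over background), and −log10 p and q values. The lowest deposited −log10 q was 1. Read depth is unknown, so list length is given in its place.

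Peaks were ranked by −log10 q. A region was called where a peak overlapped it by 1 bp or more. Calls and shared-region percentiles were compared by the mean difference within strata (genotype within day and medium, medium within genotype and day, D5 against D1 within genotype and medium), with every arrangement of the labels, two-sided. Benjamini-Hochberg adjustment ran over all regions whose calls allow p of 0.05 or lower, or over all shared regions, at 0.05. Groups of 2 libraries allow no useful test alone. KO lines recur across conditions and deviated together (correlations of 0.357 to 0.542 over 3 pairs of groups). A test paired by line was therefore an alternative for medium and day. It was not run for genotype. Gene positions and sequences are RefSeq's (GRCm38.p6), and 4357 of 31151 genes without a promoter row were read at either gene end. Aes, an older symbol of Tle5, was not counted again. Some genes of the blood lists are not reported here. Named were own starts, elements past a threshold, the most-called elements of each locus, WT medium differences, and others marked as chosen afterwards. The members and lists were chosen with earlier results of these data known. Scripts used Python 3.11.15, numpy 2.4.6 and pandas 2.3.3, and were tested on simulated data.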

Additional observations from a re-analysis of the deposited data

Results flagged for a closer look

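In 14 cases 2 contrasts differed in sign at a shared element, and in each contrast the libraries of the 2 groups did not overlap. Values are in shared-region percentile points, among the 20 shared elements. With 6 pairs of contrasts these were 14 of 120 (11.7%), against 3967 of 66864 (5.93%) over all shared regions. Groups held 2 libraries, and none of these differences was tested.

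Under MR at D1, WT and KO moved apart at Runx2 +37.3 kb (9.3 higher in WT and -12.4 in KO, a difference of 21.7) and at Cbfb +16 kb (-6.5 and 22.2, a difference of -28.7). In WT, MR minus CTL had opposite signs at D5 and D1 in 5 elements. The differences, D5 less D1, were 56.7 at Cbfb +16 kb, 34.3 at the Runx1 proximal start, 14.1 at Runx1 +204.9 kb, -18.8 at Runx1 -2.1 kb and -20.6 at Runx1 +216.4 kb. At Cbfb +16 kb the MR libraries of WT at D5 stood at 70.1 and 55.4 and the CTL libraries at 0.9 and 24.3.

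From D0 to D1 in CTL, Runx1 +115.7 kb changed by -21.5 in WT and by 31.5 in KO, a difference of -53.0. In WT, the change from D1 to D5 differed in sign between MR and CTL by 34.3 at the Runx1 proximal start, -26.4 at the Runx3 distal start, -49.0 at the Cbfb start and 56.7 at Cbfb +16 kb, as MR less CTL. At the Cbfb start, WT at D5 stood at 60.9 and 40.2 in CTL and at 7.2 and 3.5 in MR. KO minus WT differed in sign between D1 in CTL and D0 by -32.0 at Runx1 +2.4 kb and by -15.1 at Runx1 -2.1 kb. The gap at Runx1 -2.1 kb was small at D1 in CTL, with KO at 12.2 and 11.8 and WT at 12.3 and 15.4. The comparisons of this section share libraries with each other.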

How the results depend on the processing

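No element passed by genotype on calls with 18 libraries, but 4 did with all 20 libraries, 6 with the 20000 strongest peaks per list and 1 without the D5 libraries. Where at least 50% of a region had to be covered, 0 elements and 0 of 21327 regions passed by genotype, against 2257 of 19646 regions in the main test. Leaving out 1 replicate or line gave 0 to 3 by genotype, 0 by medium and 0 to 6 by day. Without KO line 2 only 27 arrangements remained and 5767 of 7670 regions passed. By day 18 passed with all 20 libraries, where the 2 added lists are the short ones of D5. By shared-region rank, 4 passed by genotype, 0 without the D5 libraries, and 0 to 6 with 1 replicate or line left out, and 0 in each such setting by medium or day. With a replicate block, 0 elements passed by medium or day, by calls or by rank. By calls this says nothing, since none could then reach p of 0.05, while by day 603 of 658 regions passed, against 0 of 14311 without the block. WT libraries share only a number, with correlations from -0.051 to 0.12. The difference for Runx1 +37.4 kb by genotype turned to 0.1 where 50% of the region had to be covered, and that for the Runx2 start by day to 0.125 among the 20000 strongest peaks; the cause was not tested. The number of elements was 98 with 10 kb on either side and 180 with 100 kb. Of the 248 values of a named element under an alternative, 184 kept direction and side of the threshold (99 of them with calls that could not reach p of 0.05), 14 had a difference of 0, 31 newly passed, 17 no longer passed and 2 reversed. Read depth is unknown, so a missing peak does not show that an element was closed.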
